A study of Mus musculus with 56 samples.

Results

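The genes that encode corepressor subunits, histone deacetylases (HDACs) and histone acetyltransferases were examined in bone marrow-derived macrophages (BMDMs) by chromatin immunoprecipitation sequencing (ChIP-seq), in which the DNA bound by a protein or carrying a histone mark is captured and sequenced. The set was 8 genes (Ncor1, Hdac1, Hdac2, Hdac3, Tbl1xr1, Gps2, Ep300 and Crebbp), and its members were all peaks that the deposited annotation assigned to 1 of these names. There were 1421 such peaks among 1610519 peaks in 56 lists, where 20352 gene names occurred in all. The cells came from wild-type C57BL/6 mice of 8 to 12 weeks and were differentiated for 6 days in medium conditioned by L929 cells, so every group shares that background and no group carries a mutation. In the first experiment, untreated BMDMs were compared with BMDMs given IL-4 (20 ng/ml) for 1 hr, with 2 samples per group for PU.1, the coactivator p300, the deacetylases HDAC1, HDAC2 and HDAC3, the active mark H3K27Ac, and RNA polymerase II phosphorylated at serine 5 (RNAPII-pS5) or serine 2 (RNAPII-pS2). In the second, BMDMs were left untreated (control), pretreated with IL-4 for 24 hr (IL-4 PT), given LPS (100 ng/ml per the labels, while the study's methods state the same number in nM) for 1 hr, or given both (IL-4 PT + LPS), with 2 samples per group for RNAPII-pS5, RNAPII-pS2 and p65. The study's figure legends describe the 2 samples as independent biological replicates.

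NCoR1 is a scaffold that binds transcription factors and holds TBLR1 (encoded by Tbl1xr1), GPS2 and the deacetylase HDAC3. HDAC1 and HDAC2 are the catalytic subunits of other corepressor complexes such as Sin3 and NuRD. These complexes remove acetyl groups from histones, while p300 (encoded by Ep300) and CBP (encoded by Crebbp) are acetyltransferases that write H3K27Ac at active enhancers and promoters. In macrophages, NCoR complexes hold inflammatory genes in check, and TBLR1 has been linked to the exchange of corepressors for coactivators. RNAPII-pS5 marks initiating polymerase, RNAPII-pS2 marks elongating polymerase, PU.1 is a lineage-determining factor of macrophages, and p65 is the NF-κB subunit that LPS brings into the nucleus. Antibodies against p300 and the HDACs measured where those proteins sat, and the results concern the chromatin at the genes, not the amount of RNA or protein made from them.

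The lists held 8440 to 71027 peaks each, and the files give no read depth, so the number of peaks stands in for it. For H3K27Ac the value of a peak is its normalized tags, and for the other antibodies it is a score on the −log10 scale of MACS2's p- or q-value, so levels were compared between genes only within 1 antibody. Start-site peaks were seen in all 4 samples of the 1-hr experiment for 7 of 10 macrophage gene names in PU.1. They were seen for 5 names in RNAPII-pS5 and 4 in H3K27Ac, where 5 names had none. The 10 hold Emr1, with such peaks for PU.1 and H3K27Ac, and Adgre1, its other name, with none. A name without a peak therefore need not mean a lack of signal. The lists for T, B, erythroid and fibroblast genes had none. Of 6 neutrophil genes, S100a8 had a start-site peak in all 4 samples for H3K27Ac and PU.1. Features of the lists that touch results were these. Among the p300 lists, untreated replicate 1 stood apart with 44787 peaks against up to 69360 in the others. Peak names inside the 4 RNAPII-pS2 lists from the IL-4 experiment of 1 hr contradict the treatment on the sample labels, so the sign of a change there is not read as an effect of IL-4. The labels also give the HDAC3 antibody the catalogue number of the H3K27Ac antibody.

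Tbl1xr1 held 907 of the 1421 peaks (63.83%) and had at least 1 in all 56 lists. Of its peaks 765 were intergenic, 542 lay more than 100 kb upstream of the start site, and their centers ran from −844.4 kb to +76.4 kb. Overlapping peaks merged into 83 regions, of which 20 rested on a single list and 7 held peaks of all 9 antibodies, and the most widely shared region was found in 51 lists. The gene lies at chr3:22076253-22216594 (mm10). RefSeq places no protein-coding gene in the upstream interval but several long noncoding RNA genes. Of these, Gm31813 (chr3:21863062-21964346) spans 243 of the peaks and Gm31610 (chr3:21421784-21489656) spans 37. Ep300 (chr15:81586209-81652077) came second with 258 peaks in 55 lists, of which 184 were intergenic, between −52.8 kb and +24.4 kb. These assignments name the nearest start site, and whether a distant peak acts on Tbl1xr1 or Ep300 was not tested.

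The other 6 genes had few peaks. Crebbp (chr16:4081334-4213957) had 74 in 41 lists, Gps2 (chr11:69913980-69917056) had 52 in 38, and Hdac2 (chr10:36974297-37001889) had 46 in 25. All 36 peaks of Hdac1 (chr4:129516104-129542646) and all 35 peaks of Hdac3 (chr18:37936971-37955015) were at the start site. Ncor1 (chr11:62315663-62457414) had 13 peaks in 12 lists, all between +8.9 kb and +67.4 kb inside the gene. The peaks that cover the Ncor1 start carry the name Pigl, a neighboring gene that encodes an enzyme of glycosylphosphatidylinositol anchor synthesis, and there were 47 of them in 45 lists at chr11:62457229-62458855. H3K27Ac there was 374.5 to 452.3 normalized tags in the 4 samples, and RNAPII-pS5 was 40.73 to 55.73 in the 1-hr experiment and 7.38 to 20.61 in the 8 samples of the LPS experiment. HDAC1 had a peak there in 4 of 4 samples (5.24 to 7.79), while HDAC3 had a peak in 0 of 4. The HDAC3 lists were shorter, with 8440 to 13599 peaks against 22340 to 30511 for HDAC1. Within Ncor1, p300 protein had 1 peak per sample, at 3.32 and 20.25 in untreated and 20.63 and 17.2 in IL-4-treated cells, which overlapped. The shared start cannot be told apart between both genes.

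At the start sites, levels of H3K27Ac followed an order in which 4 of 6 neighboring pairs did not overlap. The highest region within 1000 bp of the start was 447.4 to 463.9 normalized tags at Ep300 in the 4 samples and 187.1 to 252.3 at Gps2. Hdac1 (162.8 to 181.2), Tbl1xr1 (110.6 to 174.1) and Hdac2 (109.3 to 152.4) followed, and each overlapped the next in this order. Hdac3 (72.1 to 81.6) and Crebbp (42.4 to 55.2) were lowest and did not overlap. RNAPII-pS5 gave another order in the same cells, with Hdac3 (47.77 to 91.71), Hdac1 (46.31 to 73.46) and Ep300 (44.04 to 53.29) at the top and overlapping in turn. Crebbp (16.46 to 26.91), Tbl1xr1 (8.56 to 22.73), Gps2 (11.06 to 28.89) and Hdac2 (7.44 to 14.96) formed a lower, overlapping group. Hdac3 was therefore high in RNAPII-pS5 and low in H3K27Ac, while Gps2 was the reverse. Of the 448 combinations of a gene and a list, 204 had a peak within 1000 bp of the start.

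**Figure D1:**
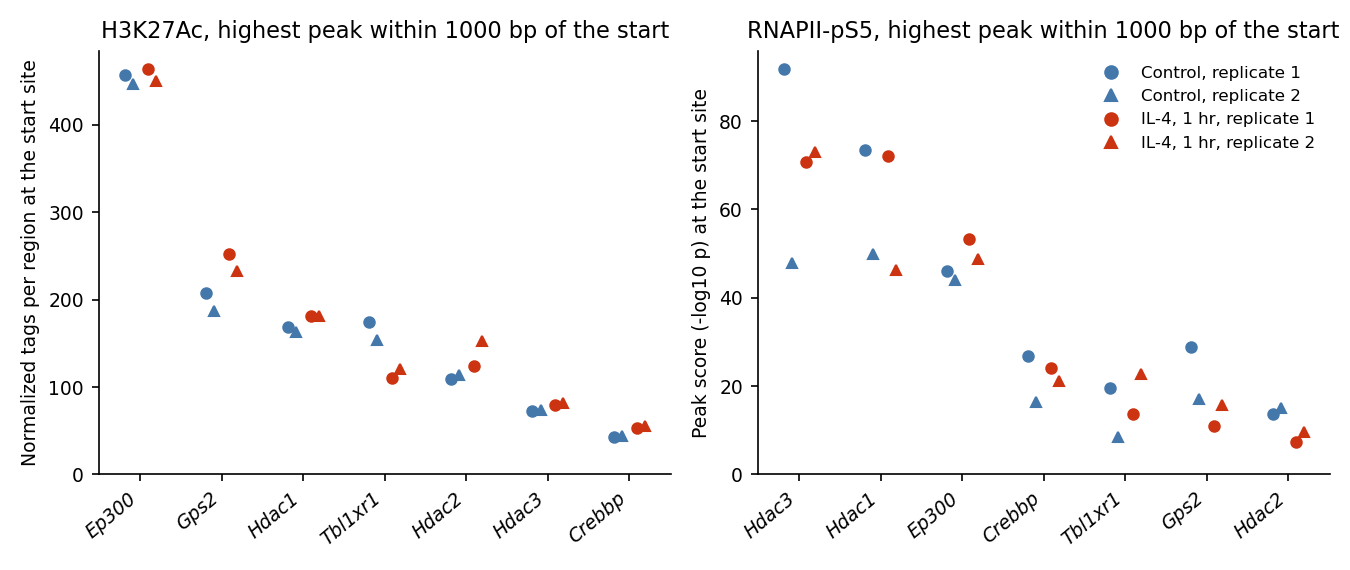
Highest peak within 1000 bp of the start of each gene in the 1-hr experiment, for H3K27Ac (normalized tags per region, left) and RNAPII-pS5 (peak score, −log10 scale, right). Blue marks untreated and red IL-4-treated samples, with a circle for replicate 1 and a triangle for replicate 2. Ep300 was highest in H3K27Ac with 447.4 to 463.9, and Hdac3, low in H3K27Ac, reached 91.71 in RNAPII-pS5.

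After 1 hr of IL-4, H3K27Ac over the peaks assigned to Tbl1xr1 was reduced to a fold of 0.489, and no other gene of the set passed the test. The summed signal of Tbl1xr1 was 1866.3 and 1841.5 normalized tags in the untreated samples and 909.8 and 896.9 in the IL-4 samples, or 1853.9 ± 17.5 against 903.4 ± 9.12 (SD, n = 2 each). The groups did not overlap, and the difference was many times the spread within either. On a log2 scale, with each sample centered on the median of shared genes, the total fell by 1.03 (SE 0.049, limma, Benjamini-Hochberg adjusted p = 0.00305). Of 50 combinations of gene and antibody tested in this experiment it was the only gene total called, while H3K27Ac changed at 32.8% of all genes tested and was lower at 18.1%. The call held without each replicate in turn, with adjusted p from 0.0339 to 0.04. With the intergenic peaks left out the total still fell, by 0.63. An exact permutation test of 2 samples against 2 cannot go below p = 0.333.

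H3K27Ac at the other genes gave mostly small positive values that did not pass after adjustment. Gps2 had 207.8 and 187.1 tags in the untreated samples and 252.3 and 232.9 after IL-4, without overlap, a log2 change of 0.30 with an limma adjusted p of 0.0671. Crebbp had 75.9 and 72.8 against 85.4 and 101.4 (log2 change 0.33, limma adjusted p = 0.102). Hdac2 had 109.3 and 113.4 against 124.5 and 152.4, Hdac1 had 168.8 and 162.8 against 180.8 and 181.2, and Hdac3 had 72.1 and 73.4 against 79.8 and 81.6. All 5 of these totals were thus higher in both IL-4 samples, with log2 changes of 0.13 to 0.33. Ep300, encoding p300, had 1014.9 and 995.7 against 899.0 and 856.4 (log2 change −0.19, limma adjusted p = 0.0759). The median log2 change of the 7 genes tested was 0.156, beside −0.01 over all genes. Ncor1 had a single region of 14.2 tags in 1 IL-4 sample and was not tested.

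**Figure D2:**
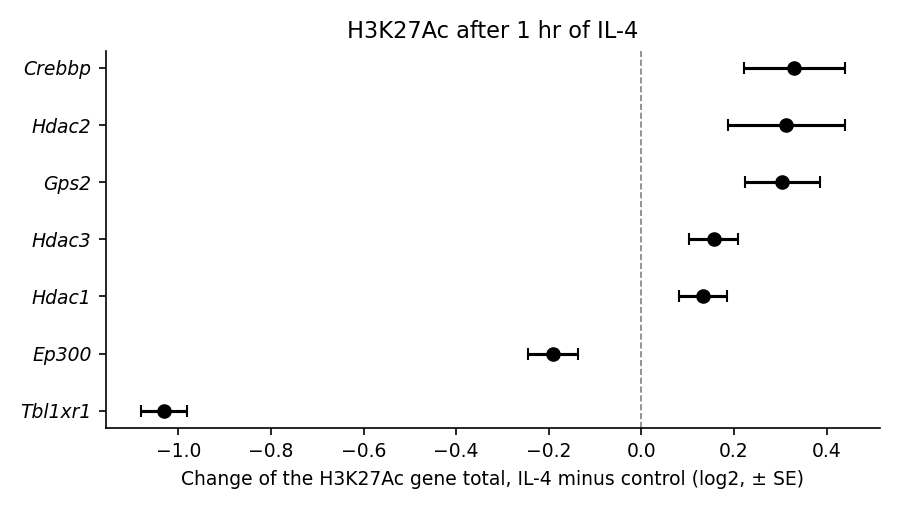
Log2 change of the summed H3K27Ac signal of each gene after 1 hr of IL-4 (points, IL-4 minus untreated, n = 2 samples each), with bars of 1 SE from limma. Tbl1xr1 fell by 1.03, while the other genes lie between −0.19 and 0.33.

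Within the Tbl1xr1 locus the lower acetylation was spread along the upstream interval. All 15 H3K27Ac sites tested had a negative change, with a median of −0.576 beside −0.02 over all sites. A site with no peak in either sample of 1 group enters the test only through the other group, so calls are counted here and below at sites with a peak in every group compared, and for other sites the scores alone are given. On that count 8 Tbl1xr1 sites were called lower. Genome-wide, 35.6% of such H3K27Ac sites were called and 19.8% were lower. At −268.4 kb (chr3:21807725-21808993) the signal was 287.9 and 289.0 tags in the untreated samples and 106.6 and 119.8 after IL-4, a fall of 1.30 on the log2 scale (limma adjusted p = 0.00282). The site at −141.0 kb (chr3:21935105-21936118) had 285.8 and 284.3 against 97.0 and 113.2 and fell by 1.39 (limma adjusted p = 0.00348). Together with the −442.6 kb site (113.3 and 127.8 against 64.6 and 63.9, fall of 0.85, limma adjusted p = 0.0079), these were the sites whose calls held without any single replicate. In each of the 3, both IL-4 samples were well below both untreated samples.

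The start site of Tbl1xr1 itself changed less. Its H3K27Ac was 174.1 and 153.7 tags in the untreated samples and 110.6 and 121.2 after IL-4, and it fell by 0.45 (limma adjusted p = 0.036), but the adjusted p was 0.0705 to 0.123 without one or another replicate. At −252.0 kb (chr3:21824129-21825446) the values went from 201.1 and 200.6 to 56 and 80.9, a fall of 1.52 (limma adjusted p = 0.0125), and without an untreated replicate the adjusted p was 0.0588 or 0.0592. The sites at −123.4 kb (184.8 and 202.8 against 125.8 and 124.6), −84.7 kb (217.3 and 223.7 against 139.7 and 132.3) and −18.4 kb (41.4 and 39.7 against 25.5 and 27.8) fell by 0.55 to 0.65, and each call was lost without one or another replicate, control replicate 2 in all 3 (limma adjusted p = 0.0508 to 0.0699). At −340.8 kb (13.5 and 11.6) and +76.1 kb (15.3 and 20.3) a region was found in both untreated samples and in neither IL-4 sample. Outside Tbl1xr1, the Ep300 site at −17.8 kb went from 237.3 and 226.2 to 188.4 and 182.3 (fall of 0.27, limma adjusted p = 0.0455) and the Crebbp start from 42.4 and 44.4 to 53.0 and 55.2 (rise of 0.37, limma adjusted p = 0.0233). Both calls were lost without a replicate, with adjusted p of 0.123 to 0.182 and 0.0789 to 0.119. The Ep300 start, with 456.8 and 447.4 against 463.9 and 450.9, was not called (limma adjusted p = 0.41).

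**Figure D3:**
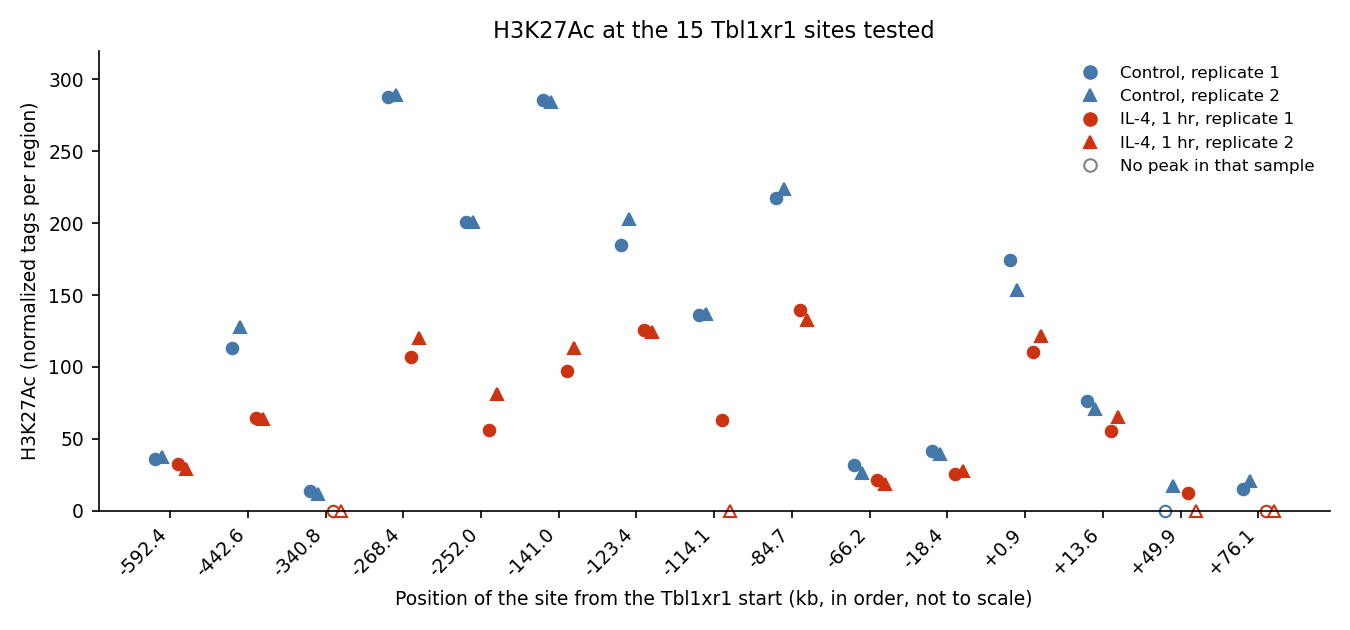
H3K27Ac (normalized tags per region) at the 15 tested Tbl1xr1 sites, ordered by distance from the start and not to scale. Blue marks untreated and red IL-4-treated samples, with a circle for replicate 1, a triangle for replicate 2 and open symbols at 0 where no region was called. At −268.4 kb the untreated samples had 287.9 and 289.0 and the IL-4 samples 106.6 and 119.8, and at −340.8 kb and +76.1 kb no IL-4 sample had a region.

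Relative to the median gene, the Tbl1xr1 totals of the 6 other antibodies whose sign can be read all had negative changes after 1 hr of IL-4. None passed after adjustment. The median gene itself shifted by 0.85 log2 units for p300, 0.42 for HDAC3, 0.29 for PU.1 and 0.08 for HDAC2. For HDAC1 the shift was −0.46 and for RNAPII-pS5 −0.04. Before centering, the mean Tbl1xr1 totals of p300 (1337.3 to 1446.1) and PU.1 (779.0 to 843.8) were higher after IL-4, and the other means were lower. RNAPII-pS5 summed to 211.13 and 153.95 in the untreated samples and 96.41 and 64.07 after IL-4, without overlap (log2 change −1.15, SE 0.23, limma adjusted p = 0.168). At an unadjusted p of at most 0.05 it was 1 of 7 genes tested, beside 14.8% of all genes. HDAC1 protein had 82.96 and 98.9 against 34.95 and 54.95 (log2 change −0.59), and HDAC3 protein had 149.05 and 88.07 against 111.48 and 73.01 (log2 change −0.76), the latter overlapping between groups. p300 protein had 665.07 and 2009.56 against 1452.21 and 1440.08, so the untreated samples lay on either side of the IL-4 samples. Its log2 change was −0.53 (limma adjusted p = 0.158), and it was −0.48 without untreated replicate 1 (adjusted p = 0.169). PU.1 had 1005.42 and 552.54 against 861.79 and 825.79 (log2 change −0.11).

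For the other genes, no total of RNAPII-pS5, RNAPII-pS2, PU.1, p300, HDAC1, HDAC2 or HDAC3 was called by limma after IL-4. Of the 43 tests on these 7 antibodies, 4 had an unadjusted p of at most 0.05 (PU.1 at Gps2, RNAPII-pS5 at Tbl1xr1, and p300 at Hdac1 and Tbl1xr1). Of all genes, 16.8% were below that threshold for RNAPII-pS2, 10.2% for PU.1, 25.8% for p300, and 8.86%, 9.47% and 15.4% for HDAC1, HDAC2 and HDAC3. PU.1 at Gps2 was 6.75 and 5.97 in untreated cells, with no peak after IL-4, so its p rests on the lowest score put in place of a peak. p300 protein at the Hdac1 start scored 2.75 and 11.55 without IL-4 and 20.36 and 33.6 with it, a log2 change of 1.36 (limma adjusted p = 0.129). Without the untreated replicate 1 that stood apart, it was 1.17 (adjusted p = 0.216). HDAC2 protein had no peak at the Hdac1 start in untreated cells but did have 1 in both IL-4 samples (3.25 and 6.93). For RNAPII-pS2, PU.1, p300 and the HDACs no gene in the genome was called, and for RNAPII-pS5 1.05% were.

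At some single sites the peak was found in 1 group only. RNAPII-pS5 had peaks at −141.7 kb of Tbl1xr1 in both untreated samples (9.88 and 9.34) and in neither IL-4 sample, and at +2.0 kb of Gps2 in both IL-4 samples (8.72 and 9.25) and in neither untreated sample. For p300 protein, peaks at −39.7 kb of Ep300 (3.05 and 13.87) and −270.7 kb of Tbl1xr1 (9.97 and 37.43) were present in untreated cells alone.

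In the LPS experiment the p65 peaks of the set lay almost wholly at Tbl1xr1 and Ep300. No p65 peak carried the names Ncor1, Hdac2, Hdac3 or Gps2, 1 carried Hdac1, and Crebbp had none without LPS, 2.04 and 8.51 with LPS and 13.99 and 20.87 with IL-4 PT + LPS. p65 summed over Tbl1xr1 was 35.88 and 33.5 in control cells, 40.52 and 20.29 after IL-4 PT, 253.65 and 235.09 after LPS, and 321.73 and 338.0 after IL-4 PT + LPS. All 4 LPS-treated samples lay above all 4 others, and the IL-4 PT + LPS samples above the LPS samples, although the latter difference was −0.07 once the shift of the median gene by 0.5 was taken off (limma adjusted p = 0.935). The median gene rose by 1.64 log2 units with LPS and by 2.29 with LPS after IL-4 PT, and relative to that shift Tbl1xr1 rose by 1.18 (SE 0.342, limma adjusted p = 0.0443) and 1.23 (limma adjusted p = 0.0443). Without centering it rose by 2.82 and 3.52 (limma adjusted p = 0.0012 and 0.000392). Of all genes 24.4% were called higher in the first comparison and 20.1% in the second. Leaving out 1 sample took the adjusted p to between 0.0834 and 0.19 in the first and to between 0.0664 and 0.22 in the second for the samples that ended the call, with the smallest change, 0.75, without IL-4 PT replicate 2. p65 lists with LPS held 26305 to 38955 peaks against 9556 to 11026 without, and the part of this difference in the scores was not tested.

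Sequences are given for 4 of the Tbl1xr1 p65 sites because they span the ways in which IL-4 PT and LPS combined there: lower p65 after pretreatment (−376.9 and −251.6 kb), similar p65 (−155.5 kb), and p65 beside both polymerase forms (−123.6 kb). Each is the 200-base window at the center of the merged peak on the plus strand of GRCm38 (mm10). Capitals mark matches to PU.1 (GAGGAAG), AP-1 (TGANTCA) or the NF-κB consensus on either strand.
−376.9 kb, chr3:21699614-21699813: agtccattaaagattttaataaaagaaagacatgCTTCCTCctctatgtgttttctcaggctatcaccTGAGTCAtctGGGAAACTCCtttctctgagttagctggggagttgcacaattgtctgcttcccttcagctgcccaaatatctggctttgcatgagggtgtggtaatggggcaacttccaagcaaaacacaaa
−251.6 kb, chr3:21824986-21825185: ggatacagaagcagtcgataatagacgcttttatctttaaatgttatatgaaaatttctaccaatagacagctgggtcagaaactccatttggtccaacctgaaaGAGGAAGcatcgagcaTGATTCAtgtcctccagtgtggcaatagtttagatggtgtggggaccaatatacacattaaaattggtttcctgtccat
−155.5 kb, chr3:21921119-21921318: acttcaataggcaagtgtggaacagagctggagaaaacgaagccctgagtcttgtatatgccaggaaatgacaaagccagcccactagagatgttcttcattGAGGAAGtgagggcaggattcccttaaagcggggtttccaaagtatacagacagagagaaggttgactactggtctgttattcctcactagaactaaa
−123.6 kb, chr3:21952929-21953128: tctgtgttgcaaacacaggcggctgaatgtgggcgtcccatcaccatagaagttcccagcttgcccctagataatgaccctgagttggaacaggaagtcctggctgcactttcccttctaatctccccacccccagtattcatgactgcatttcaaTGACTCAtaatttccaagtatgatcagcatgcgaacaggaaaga

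Windows were taken at the 6 Tbl1xr1 p65 sites called higher with LPS, of 13 tested in that comparison, which include −652.6 and −441.6 kb. At 5 of the 6, control cells had no p65 peak, so those sites were chosen through the LPS group alone. Of the 6 windows, 1 held the NF-κB consensus (the run GGGAAACTCC at −376.9 kb). The PU.1 motif was in 3 and the AP-1 motif in 4, and none held the STAT motif (TTC and GAA with 4 bases between). Among 37556 windows of the same length at p65 sites, the shares were 13.9% for NF-κB, 19.2% for PU.1, 22.9% for AP-1 and 8.4% for STAT. Those windows were not chosen by a call, so the shares are not a matched comparison. A match is a description of letters and does not show binding. The motifs were chosen with the sites known.

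Of 8 p65 sites of the set with a peak in both control and LPS cells 1 was called, beside 25.3% of all such sites. At −376.9 kb (chr3:21699505-21699922) there was no peak in control or IL-4 PT cells, LPS gave 49.65 and 37.6, and IL-4 PT + LPS gave 18.16 and 27.47. The pretreated samples lay below both LPS samples, a fall of 1.22 (limma adjusted p = 0.0156), which was lost without any one of 3 of the 4 samples (adjusted p = 0.0534 to 0.15). At −251.6 kb (chr3:21824893-21825277) the scores were 10.03 and 12.28 after LPS and 7.26 and 7.04 after IL-4 PT + LPS, a fall of 0.90 (limma adjusted p = 0.0152) that was lost without either IL-4 PT + LPS sample (adjusted p = 0.126 and 0.153). At −155.5 kb (chr3:21921002-21921435) they were 17.37 and 14.89 after LPS and 20.27 and 19.66 after both, with no peak otherwise. At −652.6 kb (chr3:21423751-21424300) they were 24.77 and 38.56 after LPS and 27.05 and 34.28 after both. Both of these sites had p65 only with LPS. With p65 in both the LPS and the IL-4 PT + LPS cells, the falls at −376.9 and −251.6 kb were the 2 calls among 23 sites of the set, beside 14.5% of all such sites.

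The site at −123.6 kb (chr3:21952717-21953674 over the 3 antibodies), within Gm31813, carried peaks of all 3 antibodies with LPS. p65 was absent and 5.08 in control cells, 8.32 and 4.46 after IL-4 PT, 44.21 and 48.32 after LPS, and 52.46 and 60.73 after both. It rose with LPS by 3.12 (SE 0.649, limma adjusted p = 0.0109), a call lost without either LPS sample. The size of this rise rests in part on the lowest score put in place of the absent control peak. Over the alternatives it was 2.079 to 4.247. RNAPII-pS5 was absent in control cells, 9.52 and 6.32 after IL-4 PT, 24.1 and 28.18 after LPS, and 8.82 and 11.16 after both. It was therefore lower in pretreated than in unpretreated cells with LPS, by 1.58 (limma adjusted p = 0.0124), although p65 was not. This call was lost without any one of the 4 samples, with adjusted p from 0.0557 to 0.105. RNAPII-pS2 was 19.66 and 15.98 in control cells, 34.97 and 47.79 after IL-4 PT, 66.38 and 68.09 after LPS, and 48.42 and 50.41 after both. It rose by 1.73 with LPS (limma adjusted p = 0.00188) and by 1.26 with IL-4 PT (limma adjusted p = 0.00904), the latter with an adjusted p of 0.0518 without IL-4 PT replicate 2 and 0.0721 without control replicate 2. Whether these polymerase peaks belong to Gm31813 or to an enhancer of Tbl1xr1 was not tested.

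**Figure D4:**
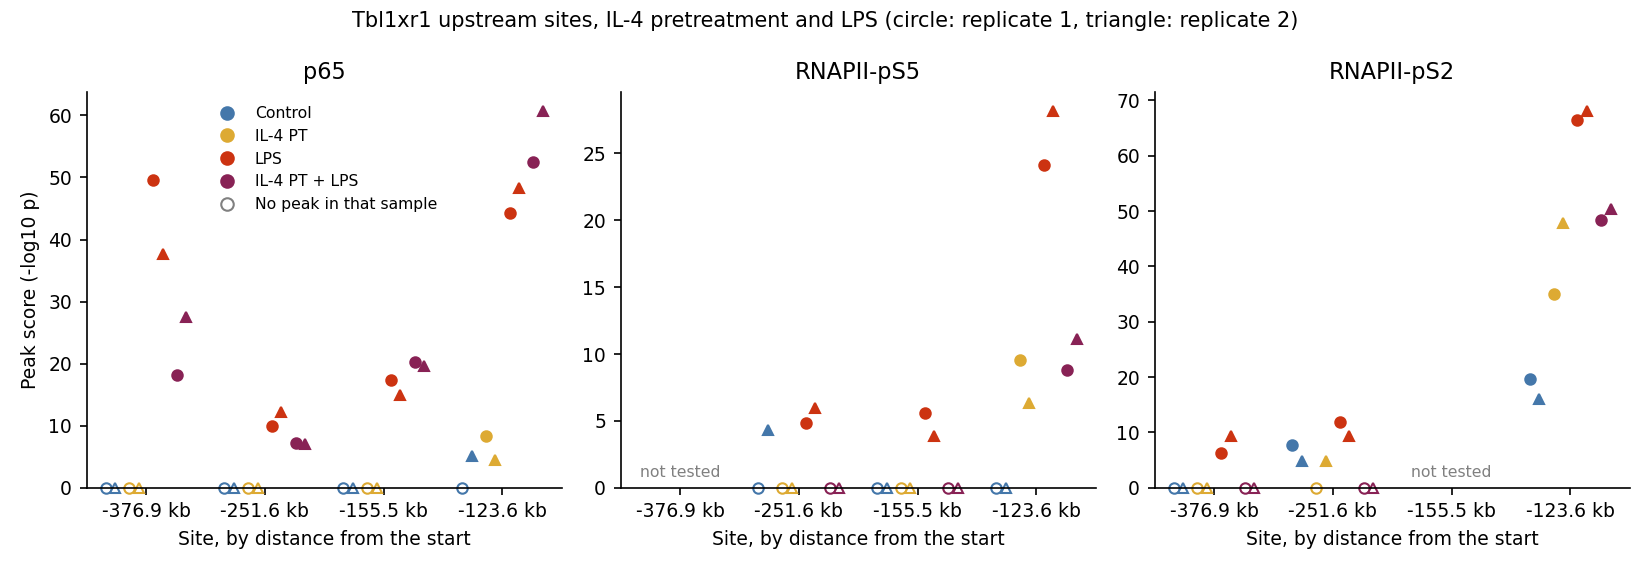
Peak scores (−log10 scale) of p65, RNAPII-pS5 and RNAPII-pS2 at 4 upstream Tbl1xr1 sites in control, IL-4 PT, LPS and IL-4 PT + LPS cells. Circles are replicate 1, triangles replicate 2, and open symbols at 0 mark a sample without a peak. At −123.6 kb p65 was 44.21 and 48.32 with LPS and 52.46 and 60.73 with both, while RNAPII-pS5 was 24.1 and 28.18 with LPS and 8.82 and 11.16 with both.

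RNAPII-pS5 summed over Tbl1xr1 was 77.69 and 78.92 in control cells, 56.51 and 70.85 after IL-4 PT, 67.52 and 65.61 after LPS, and 32.79 and 32.95 after IL-4 PT + LPS. The 2 samples with both were the lowest of the 8. Against LPS alone the total fell by 1.30 (SE 0.265, limma adjusted p = 0.0247), beside 5.75% of all genes called lower, and without any one of the 4 samples the adjusted p was 0.0778 to 0.14. Several upstream sites had RNAPII-pS5 in control cells only, as at −442.7 kb (15.4 and 9.8), −268.1 kb (8.4 and 6.33) and −113.4 kb (8.08 and 6.01). The site at −340.8 kb had peaks in control (4.4 and 6.22) and LPS cells (6.24 and 9.19) and in no pretreated sample, whereas the start region at +0.9 kb had them after IL-4 PT alone (7.36 and 6.04). Of 10 sites of the set with RNAPII-pS5 in both the LPS and the IL-4 PT + LPS cells, 2 were called, both lower, beside 9.46% of all such sites. Counted in the same way, 0 of 10 sites were called with LPS, beside 20% of all such sites, and 0 of 12 with IL-4 PT, beside 5.83%. Between IL-4 PT + LPS and IL-4 PT, 2 of 12 were called, 1 higher and 1 lower, beside 14.7%. RNAPII-pS5 lists with LPS held 14476 to 18207 peaks against 19279 to 22149 without, and its part in these values was not tested.

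RNAPII-pS2 at Tbl1xr1 summed to 178.9 and 147.58 in control cells, 133.28 and 186.07 after IL-4 PT, 246.02 and 217.13 after LPS, and 166.75 and 156.78 after both. LPS samples were highest, but no total was called, while single sites were. At −88.5 kb (chr3:21987812-21988584) it was 5.56 and 5.65 in control cells, 19.84 and 28.83 after IL-4 PT, 5.93 and 10.01 after LPS, and 35.1 and 24.87 after both, so the 4 pretreated samples lay above the 4 others. It rose with IL-4 PT by 2.14 (limma adjusted p = 0.00628, and 0.0521 without control replicate 1) and was higher with both than with LPS by 2.00 (limma adjusted p = 0.00989, and 0.0561 or 0.0921 without a sample that had both). Peaks at −376.9 kb (6.36 and 9.39) and +35.0 kb (8.96 and 6.67) were found with LPS alone. Of sites of the set with RNAPII-pS2 in both groups, 2 of 20 were called with LPS, beside 23.7% of all such sites, 3 of 22 with IL-4 PT, beside 13.4%, and 3 of 18 between IL-4 PT + LPS and LPS, beside 9.26%.

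At Ep300, RNAPII-pS2 fell with LPS. Its total was 55.04 and 54.44 in control cells and 27.33 and 27.79 after LPS, a fall of 1.21 (SE 0.353, limma adjusted p = 0.0463), beside 17.6% of all genes called lower, and without any one of the 4 samples the adjusted p was 0.134 to 0.168. With the intergenic peaks left out the sign turned, to a change of 0.72. At −17.4 kb (chr15:81567817-81569108) RNAPII-pS2 was 7.31 and 8.36 in control cells, 5.77 and 4.76 after IL-4 PT, and absent in the 4 samples with LPS, and RNAPII-pS5 at −18.0 kb was likewise 9.35 and 4.52, then 9.86 and 7.39, and absent with LPS. Just inside the gene, at +0.1 kb, RNAPII-pS5 was absent without LPS and 11.17 and 10.68 with it, and 7.37 and 6.42 with both. Peaks at −17.4 and −18.0 kb were thus found without LPS and those at +0.1 kb with it. Just upstream of the start, RNAPII-pS2 at chr15:81584023-81585225 had a peak in both groups and was called lower with LPS. Its log2 change ran from −4.376 to −1.577 over the alternatives, and the call held in 9 of 16. Another upstream RNAPII-pS2 site (chr15:81535880-81536394) went the other way, with peaks after LPS and none in control cells. p65 further upstream was found in adjoining peaks by group: 3.06 and 7.53 at −52.1 kb in control cells only, 12.22 and 13.69 at −51.5 kb with LPS only, and 20.13 and 11.21 at −52.8 kb with both only.

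The remaining genes had polymerase at their starts, with fewer peaks with LPS at some. The RNAPII-pS2 totals of 6 of 7 genes had a negative change with LPS (median −1.70, beside −0.245 over all genes), from −1.21 at Ep300 to −2.78 at Hdac2, while Tbl1xr1 was at 0.28. Only that of Ep300 was called. The other 5 had no peak in at least 1 LPS sample, so the size of their change rests on the lowest score put in its place. Gps2 had RNAPII-pS2 at −0.4 kb of 17.97 and 10.1 in control cells, 6.61 and 5.61 after IL-4 PT, and none with LPS. Its RNAPII-pS5 at −0.5 kb (5.73 and 6.14) was present in control cells alone. Away from this site, RNAPII-pS5 peaks assigned to Gps2 were found in the other groups. They scored 6.69 and 7.79 after IL-4 PT, 6.29 in 1 LPS sample, and 11.17 and 8.52 after both. The RNAPII-pS5 total of Gps2 was not called in any comparison. The gene's RNAPII-pS2 site at +1.5 kb was found after IL-4 PT (6.78 and 10.61) and IL-4 PT + LPS (12.76 and 10), with no peak in control cells.

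Hdac2 had RNAPII-pS2 at +0.6 kb of 8.31 and 8.05 in control cells and no peak after LPS. A start-site peak was also found in 1 IL-4 PT sample (6.72) and 1 IL-4 PT + LPS sample (5.22). Hdac1 had RNAPII-pS5 of 11.64 and 8.1 in control cells, 7.66 and none after IL-4 PT, none in either LPS sample, and 10.21 and 4.16 after both. RNAPII-pS2 at +0.1 kb of Hdac1 was absent in the LPS samples and 5.58 and 8.29 with both. Hdac3 kept an RNAPII-pS5 peak in all 8 samples (5.13 to 13.49). No total of the set was called with IL-4 PT alone, and none had a called difference between the LPS change with and without pretreatment. At an unadjusted limma p of at most 0.05 there were 2 of 16 and 4 of 17 such tests, beside 23.6%, 32.7% and 30.9% of all genes with IL-4 PT and 22.6%, 22.4% and 22.3% for the difference, in RNAPII-pS5, RNAPII-pS2 and p65. Over all genes, 9.83%, 16.8% and 16.2% were called with IL-4 PT for RNAPII-pS5, RNAPII-pS2 and p65, and 6.11%, 6.38% and 7.42% for that difference. At sites with a peak in every group, the difference was called for RNAPII-pS2 at −123.6 kb (−1.64, limma adjusted p = 0.0196), 1 of 9 such sites of the set, beside 3.47% of all such sites. The comparisons share the control or the LPS samples, so their counts are not independent of each other. With every site counted there were 92 calls in 259 site tests of this experiment, of which 77 were at sites with no peak in 1 of the compared groups. The other 15 were 8 higher and 7 lower. Counting every site, the set had 11 of 23 calls with LPS for RNAPII-pS5, 13 of 32 for RNAPII-pS2 and 8 of 17 for p65. Over all sites these were 9152 of 19529, 14110 of 29911 and 11902 of 22902. With IL-4 PT the set had 8 of 22, 6 of 27 and 4 of 7, beside 4990 of 21664, 9422 of 28490 and 2539 of 10798.

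A list of 48 other genes of corepressor and coactivator complexes gave a wider frame. In H3K27Ac after 1 hr of IL-4, 41 were tested, 1 was higher and 6 were lower, beside 14.8% and 18.1% of all genes. Tbl1x, the paralog of Tbl1xr1, fell from 193.6 and 207.2 tags to 122.9 and 140.9 (by 0.60, limma adjusted p = 0.0255). Ncoa1, a coactivator that recruits p300 and CBP, fell from 571.0 and 566.4 to 394.7 and 366.9 (by 0.57, limma adjusted p = 0.0111), and Hdac4, a class IIa deacetylase, from 908.4 and 942.9 to 650.3 and 667.9 (by 0.48, limma adjusted p = 0.0134). Chd4, the remodeling subunit of NuRD and 1 of the 6, had 66.6 and 66.9 in untreated cells and no region after IL-4. The counts for this list and over all genes include such genes with no peak in a group. For p65 with LPS, 8 of 30 were higher and 3 lower, beside 24.4% and 9.68% of all genes, and for RNAPII-pS2 with LPS 1 of 41 was higher and 9 were lower, beside 13.8% and 17.6%. p65 over Tbl1x was absent in control cells, 30.56 and 26.8 after LPS, and 57.22 and 61.42 after IL-4 PT + LPS.

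Tbl1xr1 and Ep300 were the members with peaks of all 9 antibodies, so patterns over the 28 group means could be compared for them alone among 6641 genes. The nearest to Tbl1xr1 by Pearson correlation were Fndc3b (0.921) and Kcnj16 (0.915), and the nearest to Ep300 were Pcif1 (0.918) and Slc25a10 (0.91). The points share libraries, so these values are a description.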

How the data were processed

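ChIP-seq peak lists of 56 samples (28 groups of 2) were used. The authors aligned reads to mm10 with BWA 0.7.10, used SAMtools 0.1.19 and HOMER 4.2, and removed blacklisted regions (versions per the submitters' processing notes). For 52 lists the authors called peaks per sample with MACS2 2.0.10, and the deposited score is the −log10 of a p-value or q-value, which of them not being stated in the files. For the 4 H3K27Ac lists the authors used HOMER, and the deposited numbers are the signal per region in normalized tags. Both rise with depth or enrichment, and depth is unknown.

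From these, scores of all peaks with a gene's name were summed (gene total), or overlapping peaks of 1 antibody were merged (site, highest score). A missing peak was set to the lowest score of that antibody and experiment, the log2 of each value was taken, and samples were centered on the median of shared features. Testing needed peaks in no fewer than 2 of the compared samples and was done with limma 3.58.1 (R 4.3.3) over all genes or sites, and called at a Benjamini-Hochberg adjusted p of at most 0.05. Calls at sites with no peak in a whole group are left out of the counts in the text unless stated, a rule added after the data were seen. The restriction to the compared samples was added after the data were seen, since centering alone moved features absent from both groups. In the LPS experiment all 8 samples of an antibody shared 1 estimate of the spread. The files were read with Python 3.11.15 and pandas 2.3.3. The fit was tested on simulated data.

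The 8 genes, the list of 48 other genes, the marker lists and the motifs were chosen with earlier results of these data known. Named genes were the members, of the list at most 4 called genes per antibody with the largest change, and the nearest 2 by correlation. Sites named were called sites, the start sites and the sites beside them, and those named with no call were chosen after their values were seen. Replicate numbers did not pair samples (r of same-numbered deviations −0.048 to 0.066 over 52 pairs of groups). Alternatives were other floors, filters, peak rules, centering, sample sets, the replicate block and leaving out each sample. Sequences of 200 bases came from GRCm38, and gene spans and noncoding genes from RefSeq.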

Additional observations from a re-analysis of the deposited data

Results flagged for a closer look

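These values are differences of the LPS change (log2) with IL-4 PT minus without it, each past an adjusted p of 0.05 in limma's interaction test over all sites of the antibody. They were 8 of 29 sites of the set for RNAPII-pS5, 4 of 37 for RNAPII-pS2 and 9 of 30 for p65. Over all sites, 4710 of 27609, 7731 of 39261 and 8733 of 37564 were called, so such calls were common throughout the genome. For 20 of the 21, at least 1 of the 4 groups had no peak, so their size and test rest on the lowest score put in its place and they are descriptions. The other is RNAPII-pS2 at −123.6 kb. No gene total was called in this test.

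For p65, the Tbl1xr1 sites at −376.9 kb (−1.42) and −251.6 kb (−1.1) had a smaller LPS change after pretreatment, and the sites at −669.3 kb (1.64), −270.0 kb (1.62), −140.5 kb (1.99) and +61.3 kb (2.08) a larger one. At −268.1 kb (−2.45) p65 was found after IL-4 PT only, with scores of 4.73 and 5.72. The Ep300 sites at −52.8 kb (3.06) and −51.5 kb (−3.77) differed in opposite directions.

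For RNAPII-pS5, the Tbl1xr1 site at −123.6 kb had the largest difference of the set's sites (−4.0), followed in sign by −155.4 kb (−1.87) and +0.9 kb (−2.39). The sites with peaks in control cells alone gave positive values, at −442.7 kb (2.92), −268.1 kb (2.17), −113.4 kb (2.1) and −79.0 kb (1.45) of Tbl1xr1 and at −0.5 kb of Gps2 (1.87).

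For RNAPII-pS2, 4 Tbl1xr1 sites were negative, at −608.4 kb (−2.33), −376.9 kb (−2.47), −123.6 kb (−1.64) and +35.0 kb (−2.47).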

How the results depend on the processing

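The 2 samples per group and the unknown depth limit every result, and values where a group has no peak depend on the score put in its place. The Tbl1xr1 H3K27Ac total kept its call in the 15 alternatives tried. Counts of called gene totals were 1 after IL-4 and 4 in the LPS experiment. The first was 2 with a floor 4 times as high, with the highest peak of a gene and with the upper 50% of peaks, and 1 to 2 without each replicate. The second was 11 with that floor, 10 with the highest peak, 9 with start-site peaks only, 8 with intergenic peaks left out, with no centering, with only the 4 samples compared and with peaks weighed by location, 7 with scores of at least 5 and with the upper 50% of peaks, and 1 to 10 without each replicate. Called sites after IL-4 were 16, of which 6 had a group with no peak, and 6 to 10 without each replicate. Called sites in the LPS experiment were 92, of which 77 had a group with no peak, and 10 with a peak in every sample, 47 with the upper 50% of peaks and 58 to 74 without each replicate. Start-site peaks were found in 148 combinations within 500 bp and 231 within 2000 bp, against 204 within 1000 bp.

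The replicate numbers did not pair the samples. With the replicate block, called gene totals in the LPS experiment were 2 and called sites after IL-4 were 9, and the other counts stayed within 1.5 times.

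Leaving intergenic peaks out (first value) or weighing by location (second) turned the sign for RNAPII-pS2 at Tbl1xr1, to 2.29 and 1.79 for IL-4 PT + LPS against IL-4 PT and to −3.13 and −2.76 for IL-4 PT against control, and for RNAPII-pS5 at Tbl1xr1 with IL-4 PT, to 2.57 and 2.56. With start-site peaks only it was 2.20 for the latter and −2.06 for RNAPII-pS5 at Gps2. With start-site peaks only and with intergenic peaks left out, Ep300 turned to 1.11 and 0.72 for RNAPII-pS2 with LPS, to 3.35 and 3.26 for RNAPII-pS5 with LPS, and to 2.05 and 2.27 for IL-4 PT + LPS against IL-4 PT. A floor 4 times as high turned p65 at Crebbp with LPS to −1.29. At sites it turned the H3K27Ac values at −340.8 and +76.1 kb to 0.053, and RNAPII-pS5 with LPS at −0.5 kb of Gps2 to 0.13 and at −79.0 kb of Tbl1xr1 to 0.18. For p65 at Tbl1xr1, IL-4 PT + LPS against IL-4 PT became −1.41 at −669.3 kb, −0.071 at −441.6 kb, −0.73 at −270.0 kb, −1.06 at −251.6 kb, −0.51 at −140.5 kb and −0.97 at +61.3 kb. IL-4 PT + LPS against LPS became −0.17 at −669.3 kb, and IL-4 PT against control became 0.20 at −270.0 kb and 0.17 at −140.5 kb. Here the higher floor itself sets the group without a peak. Of the other single values, 1810 gene-total and 1201 site values kept direction and side of the threshold, while 37 and 298 lost the call and 75 gene totals gained it.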
